A study of Homo sapiens with 171 samples.

Results

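The data described here are the 6 OV90 arrays of a series of 171 that profiled ovarian cancer lines with and without cisplatin. OV90 is an established line that was grown from the ascites of an ovarian serous adenocarcinoma. Its members were found by the cell line, treatment and batch in the labels, and all 6 lie in batch 2. The untreated group had 3 cultures, and the treated group had 3 cultures given cisplatin for 48 h at the GI50, the concentration that holds growth of that line at a set fraction of the control. The dose itself was not analysed here, and no other agent or allele is named. A line is a single cell population, so the cultures carry no spread between patients. The cultures are numbered 1 to 3, and nothing in the labels says that each was grown on its own. The limma fit pools its error over 107 cultures of 18 replicated lines, so a p-value sets the change against the spread of a gene among cultures of all these lines, which could be technical. A gene with tight OV90 arms can therefore miss the threshold.

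Cisplatin forms adducts and crosslinks on DNA that stall replication forks. Stalled forks activate the ATR checkpoint, excision repair removes intrastrand adducts, the Fanconi anaemia and homologous recombination pathways handle interstrand crosslinks, and translesion polymerases copy past damaged bases. DNA damage signalling can also switch on CDKN1A and other arrest and repair genes, and E2F factors switch on the genes of DNA synthesis when cells pass from G1 into S phase. Histone genes are transcribed with DNA synthesis, and their mRNA is lost when synthesis stops.

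All values are log2 values as deposited, and a change is the mean of the treated minus the mean of the untreated cultures on that scale. Pairs of cultures within an arm differed by a median absolute value of 0.0915 to 0.186 per gene over 6 pairs. Pairs across arms differed by 0.142 to 0.190 over 9 pairs. Within the untreated arm the range was 0.121 to 0.186, with cultures 1 and 3 furthest apart, and within the treated arm 0.0915 to 0.121. Levels of cell type marker genes describe the OV90 cultures and do not check the identity of the line. EPCAM was 9.49 ± 0.06 (SD, n = 3) and CDH1, which encodes E-cadherin, 7.21 ± 0.15 in the untreated cultures, both rank 8 of the 18 replicated lines. The keratins were lower than in most lines, with KRT7 at 5.88 against a median of 9.84 in the other 17, KRT8 at 11.13 against 12.33, KRT18 at 10.77 against 12.37 and KRT19 at 8.26 against 9.38. Of the mesenchymal genes the collagen gene COL3A1, at 12.59 ± 0.06, DCN, at 8.39 ± 0.09, and VIM, the gene of vimentin, each ranked 1 of 18, and COL1A1 and COL1A2 ranked 2. CDH2 (6.99, rank 16), ACTA2 (6.47, rank 13) and ZEB1 (6.27, rank 11) lay below the median of the other lines. The ovarian markers PAX8 (5.66 ± 0.37, rank 17), MUC16 (4.90 ± 0.23, rank 16) and WFDC2 (5.57 ± 0.17, rank 17) were at the low end of the lines, as were MSLN (5.58, rank 17), SOX17 (6.38, rank 18) and MECOM (6.68, rank 14). WT1 (6.49, rank 5) and FOLR1 (5.34, rank 8) lay above the other lines' median. Of the leukocyte markers LYZ was 11.54 ± 0.04 against a median of 3.17 in the other lines, and PTPRC, which encodes CD45, 4.07 ± 0.49 against 2.88 (rank 2). CD3D (3.89), CD3E (4.50), CD14 (4.98), MS4A1 (3.36) and TYROBP (6.59) were below that median. The 5 endothelial markers lay between 3.84 and 5.15 and at or below the other lines' medians. Over the marker lists, mean levels ran from 8.76 to 8.84 untreated and 8.58 to 8.73 treated for epithelial genes, from 9.20 to 9.31 and 9.26 to 9.35 for mesenchymal genes, from 5.50 to 5.66 and 5.56 to 5.66 for leukocyte genes, and from 4.26 to 4.57 and 4.38 to 4.58 for endothelial genes.

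One feature of the OV90 arrays touches many of the falls below. A set of 50 genes was at least 2 log2 units higher in untreated A2780, another line of the series, than in any of the 16 remaining lines, OV90 left aside. Their median level was 9.58 in A2780 and 4.54 in the 16 lines. In OV90 the median was 6.78, 6.86 and 6.90 in untreated cultures 1, 2 and 3, and 5.82, 6.02 and 5.83 in treated cultures 1, 2 and 3. Untreated OV90 lay above all 16 lines for 35 of the 50 genes, and treated OV90 for 27. On a linear scale, with the level of the 16 lines taken as background, the median gene stood at 9.09%, 11.2% and 12.4% of its A2780 level in the untreated cultures and at 4.27%, 4.08% and 4.00% in the treated ones. These shares varied widely between genes. The quartiles were 4.23% and 19.6% in untreated culture 1, and 1.405% and 9.58% in treated culture 1. In untreated culture 1 BRINP3 stood at 0.0036% and MGP at 0.293%. ROBO2 and COL3A1, higher in OV90 than in A2780, stood there at 1714% and 547%. In A2780 itself the 50 genes had a median change of -0.01 under cisplatin. Of the 50, 27 fell in OV90 and 0 rose by limma's test at an adjusted p below 0.05, against 1.80% of all genes that fell. For the 4 other lines in which the same rule found at least 30 genes, 1 of 54 (FU-OV-1), 1 of 71 (OVCA420), 3 of 35 (OVCAR-10) and 0 of 49 (TYK-nu) of those genes fell in OV90. This set was chosen after the values had been seen and its share is a description. Its part in the results below was not tested. A2780 levels are given beside some of the genes below, and a gene without one may also be higher in A2780.

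**Figure D1:**
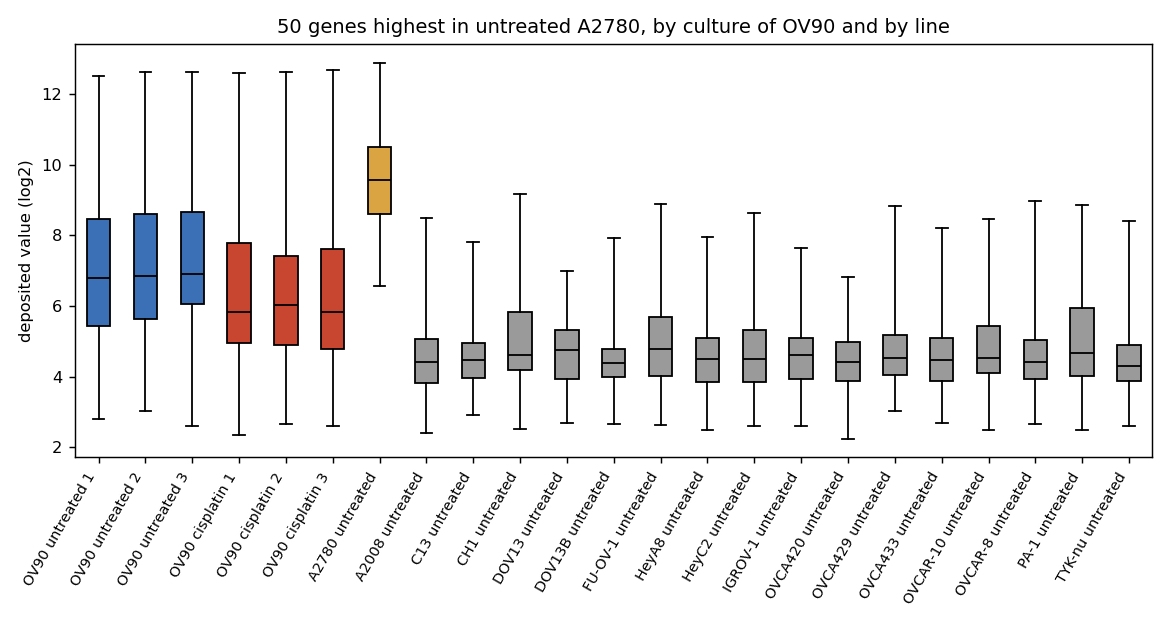
Log2 levels of the 50 genes highest in untreated A2780, in each OV90 culture (blue untreated, red cisplatin), in untreated A2780 (gold) and in the 16 other untreated lines (grey). Boxes span the quartiles with the median as a line and whiskers the full range; the OV90 medians lie between the 9.58 of A2780 and the 4.54 of the other lines and are lower after cisplatin.

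Cisplatin changed 538 of 18417 genes in OV90 by limma with Benjamini-Hochberg adjustment at 0.05, which is 2.92% of the genes tested. Of these, 206 (1.12%) rose and 332 (1.80%) fell, and 2085 genes had an unadjusted p below 0.05. The treated and untreated values did not overlap for 536 of the 538; over all genes 1842 (10%) were higher and 2452 (13.3%) lower without overlap. Rises were small, with a median of 0.47, and 3 reached 1 log2 unit; falls had a median size of 0.54, and 56 reached 1. When the 1194 genes that untreated A2780 held at least 1 unit above the median of the 16 lines were left out, 180 rose and 171 fell. Genes that A2780 held at least 1 unit above OV90 made up 115 of the 332 falls and 1 of the 206 rises, out of 670 such genes. The counts also moved with single cultures: without untreated 1, untreated 2, cisplatin 1, cisplatin 2 or cisplatin 3 the rises were 100, 125, 99, 133 and 111, and without untreated 3, cisplatin 2 or cisplatin 3 the falls were 183, 203 and 186. In all 6 such fits 76 of the rises and 146 of the falls kept their call.

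The 15 largest rises without overlap were CDKN1A, CCNE2, HLA-DPA1, SULF2, CLSPN, SUGT1P1, RRM2, AKAP5, MUC13, HSD17B6, DSCC1, E2F2, MYBL1, TTLL6 and E2F8, from 1.58 down to 0.74. SULF2, an extracellular sulfatase gene, read 5.68, 5.82 and 5.82 untreated and 6.74, 6.68 and 6.79 treated (0.96 ± 0.26 (SE), adjusted p = 0.0189), a call lost without any 1 of the 6 cultures. SUGT1P1, a pseudogene, changed by 0.86 (adjusted p = 0.0217), the kinase anchor gene AKAP5 by 0.82 (0.00374), HSD17B6, of steroid metabolism, by 0.78 (0.0051) and TTLL6, of tubulin modification, by 0.74 (0.0101); these 4 lost their call without 3, 1, 2 and 3 of the 6 cultures in turn. CDKN1A, which encodes the CDK inhibitor p21, read 6.12, 6.26 and 6.39 in the untreated cultures and 7.95, 7.83 and 7.72 in the treated ones. The groups lay more than 1 unit apart, a 2.99-fold rise (1.58 ± 0.15 (SE), adjusted p = 1.35e-13). CCNE2, the gene of cyclin E2 that drives CDK2 at the start of S phase, read 7.21, 7.30 and 7.44 untreated and 8.46, 8.51 and 8.42 treated. It rose 2.21-fold, by 1.14 ± 0.13 (SE, adjusted p = 1.24e-10). CLSPN encodes claspin, the adaptor through which ATR activates CHK1. It read 8.36, 8.45 and 8.56 untreated against 9.41, 9.36 and 9.33 treated, with no overlap, and rose 1.88-fold (adjusted p = 6.36e-05).

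**Figure D2:**
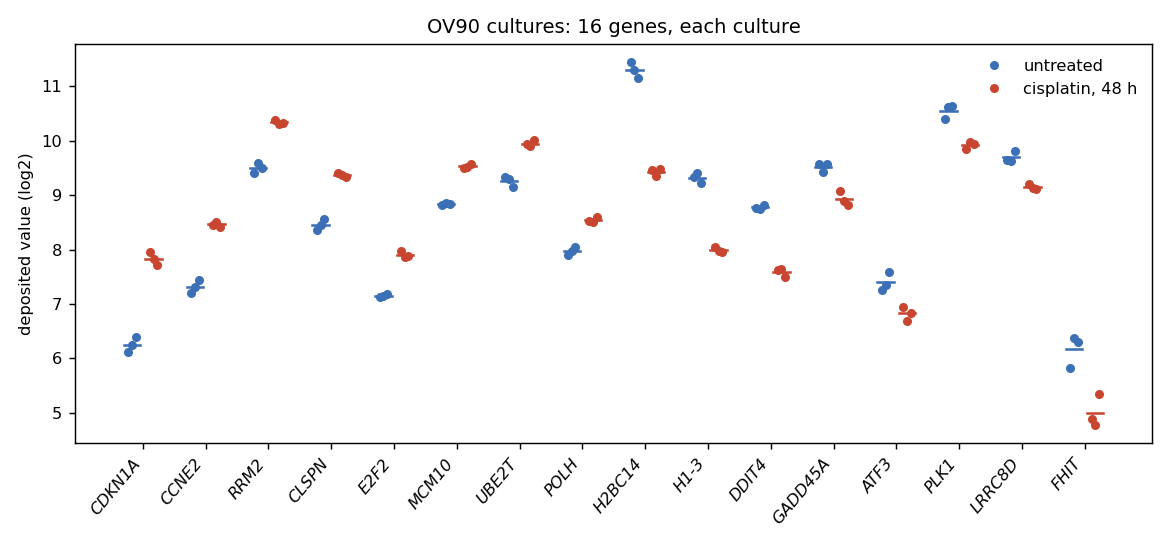
Deposited log2 values of 16 genes in the 3 untreated (blue) and 3 cisplatin-treated (red) OV90 cultures, 1 point per culture with a line at the mean of each arm. For each of the 16 genes the arms do not overlap; CDKN1A moves from a mean of 6.26 to 7.83 and H2BC14 from 11.3 to 9.43.

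Several E2F factors and G1/S regulators rose. Of 22 measured G1/S cyclins and E2F factors, 6 rose and 1 fell, with a median change of 0.14 against -0.01 over all genes. Among all genes tested 1.12% rose and 1.80% fell, and these shares are the background for each list count below. E2F2, an activating E2F, read 7.12, 7.15 and 7.18 untreated and 7.98, 7.86 and 7.88 treated. The treated values all exceeded the untreated ones, by 0.76 ± 0.13 (SE, adjusted p = 2.66e-05). The repressive members E2F8 and E2F7 rose by 0.74 and 0.72 (adjusted p = 1.22e-06 and 0.000131), and CDC25A, the phosphatase that activates CDK2, by 0.53 (adjusted p = 0.00057). The 1 fall was CDKN1B, which encodes p27, at -0.46 (adjusted p = 0.00288); its untreated level was 9.40 in A2780 and 8.10 in OV90.

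E2F proteins bind GC-rich promoter sites, of which 4 spellings were searched on both strands in the 250 bases before the transcription start: TTTCCCGC, TTTCGCGC, TTTGCCGC and TTTGGCGC. RefSeq promoters (GRCh38.p14) were matched for 14237 of the 18417 genes. At least 1 match was present in 25 of 168 promoters of genes that rose (14.9%), in 9 of 281 of genes that fell (3.20%) and in 534 of all 14237 (3.75%). For the replication genes described next, 11 of 27 promoters (40.7%) had one. The 120 bases before the start are shown for the 6 largest rises with a match there, on the gene's strand, 5′ to 3′, with the match in capitals.
E2F2: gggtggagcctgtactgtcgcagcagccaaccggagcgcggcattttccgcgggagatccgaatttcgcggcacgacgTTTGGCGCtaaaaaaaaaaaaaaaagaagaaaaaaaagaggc
CDCA5: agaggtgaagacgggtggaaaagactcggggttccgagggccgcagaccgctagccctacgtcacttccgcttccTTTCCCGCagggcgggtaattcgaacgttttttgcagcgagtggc
MND1: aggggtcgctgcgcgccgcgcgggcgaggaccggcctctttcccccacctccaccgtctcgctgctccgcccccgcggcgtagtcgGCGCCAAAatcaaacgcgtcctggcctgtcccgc
DTL: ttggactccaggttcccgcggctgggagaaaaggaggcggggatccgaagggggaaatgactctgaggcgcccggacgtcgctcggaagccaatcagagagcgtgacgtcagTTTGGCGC
OAS3: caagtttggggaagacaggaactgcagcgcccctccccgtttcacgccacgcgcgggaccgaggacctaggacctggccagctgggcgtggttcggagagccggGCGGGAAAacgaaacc
CDC25A: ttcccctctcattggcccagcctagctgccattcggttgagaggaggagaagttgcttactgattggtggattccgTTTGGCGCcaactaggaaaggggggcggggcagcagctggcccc

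These stretches lie at chr1:23531234-23531353 (minus strand, E2F2), chr11:65084041-65084160 (minus, CDCA5), chr4:153344568-153344687 (plus, MND1), chr1:212035628-212035747 (plus, DTL), chr12:112938354-112938473 (plus, OAS3) and chr3:48188418-48188537 (minus, CDC25A). A match is a description of the letters, not a bound site. CDCA5 (sororin, which holds sister chromatids together) changed by 0.67, DTL (a subunit of the ubiquitin ligase that degrades CDT1 in S phase) by 0.58 and OAS3 (an interferon-induced sensor of double-stranded RNA) by 0.53, and each passed the test. MND1, which pairs homologous chromosomes in meiosis, changed by 0.67 (adjusted p = 0.0352), a call lost without any 1 of the 6 cultures; that of OAS3 was lost without untreated 2 (adjusted p = 0.0762) or cisplatin 1 (0.0605).

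Of 31 measured genes of origin licensing and the replication fork, 15 rose, 0 fell and 16 did not pass. The change was above 0 for 30, and the median was 0.33 against -0.01 over all genes. MCM10, which joins the helicase to the polymerase, read 8.82, 8.85 and 8.83 untreated and 9.50, 9.51 and 9.58 treated. Both arms were tight, and the rise was 0.70 ± 0.09 (SE, adjusted p = 1.12e-08). FEN1, the nuclease that trims Okazaki fragments, rose by 0.57 (adjusted p = 7.00e-07), the GINS subunit GINS3 by 0.54 (adjusted p = 0.000267) and the licensing factor CDC6 by 0.51 (adjusted p = 0.000115). PCNA, the sliding clamp, rose by 0.43 from 10.44, 10.35 and 10.33 to 10.74, 10.85 and 10.82. The exception in sign was the helicase subunit MCM6 at -0.12 (adjusted p = 0.689), whose arms overlapped. The count fell to 8, 7, 9 and 8 without untreated 1, cisplatin 1, cisplatin 2 and cisplatin 3, while the median stayed between 0.31 and 0.37 over the 6 fits.

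Ribonucleotide reductase, which makes deoxynucleotides, rose in both its main subunits. RRM2 read 9.40, 9.58 and 9.50 untreated and 10.38, 10.31 and 10.32 treated, a 1.79-fold rise (adjusted p = 3.69e-10). RRM1 read 9.96, 10.21 and 9.98 against 10.75, 10.80 and 10.78, a 1.66-fold rise (adjusted p = 2.72e-13). Treated values lay above untreated ones by at least 0.5 in both genes. Thymidylate synthase, TYMS, rose by 0.43 (adjusted p = 0.00214), and these 3 were the members that passed among 16 genes of nucleotide synthesis, whose median was 0.07.

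Of 22 Fanconi and homologous recombination genes, which repair crosslinks, 8 rose, 0 fell and 14 did not pass. The median was 0.32, and 5 had a change below 0. UBE2T, the ubiquitin-conjugating enzyme of the Fanconi core complex, read 9.33, 9.30 and 9.15 untreated and 9.93, 9.90 and 10.01 treated, a rise of 0.68 ± 0.12 (SE, adjusted p = 3.34e-05). EXO1, an end-resecting nuclease, rose by 0.64 (adjusted p = 1.29e-06), FANCI, which is ubiquitinated with FANCD2 at crosslinks, by 0.59 (adjusted p = 4.67e-07) and the helicase BRIP1 by 0.59 (adjusted p = 0.00108). BRCA1 read 9.27, 9.33 and 9.42 against 9.60, 9.64 and 9.66, without overlap, and did not pass (0.29, adjusted p = 0.0958). The count was 4, 5, 4 and 5 without untreated 1, untreated 2, cisplatin 1 and cisplatin 3.

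Of the other repair pathways, 2 of 13 translesion genes rose and 0 fell, and of 16 excision repair genes 1 rose and 1 fell. Over all genes 1.12% rose and 1.80% fell. POLH, the translesion polymerase that copies past cisplatin adducts, read 7.91, 7.98 and 8.04 untreated and 8.53, 8.50 and 8.59 treated and rose by 0.57 (adjusted p = 2.21e-06). DDB2, a damage sensor of excision repair, rose by 0.56 (adjusted p = 0.000949), and POLQ, of end joining, by 0.49 (adjusted p = 0.0117, a call lost without untreated 1, untreated 2 or cisplatin 1, at 0.109, 0.0563 and 0.0537). RAD23B, a partner of XPC, changed by -0.32 (adjusted p = 0.00988), lost without untreated 1, cisplatin 2 or cisplatin 3 (0.167, 0.0618 and 0.103). ERCC1 was 0.17 higher (adjusted p = 0.673). None of the 5 mismatch repair genes had an adjusted or unadjusted p below 0.05 in limma.

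Of the 21 checkpoint genes, CLSPN, CDC25A and TOPBP1 rose, the last losing its call without untreated 1 (adjusted p = 0.206) or cisplatin 3 (0.0732). MDM4 was at -0.46 (adjusted p = 0.0358), a call lost without untreated 2, untreated 3, cisplatin 2 or cisplatin 3 (0.0835, 0.236, 0.0898 and 0.264). The list had a median of 0.04. With genes raised in A2780 left out, 3 of 19 rose and 0 fell.

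**Figure D3:**
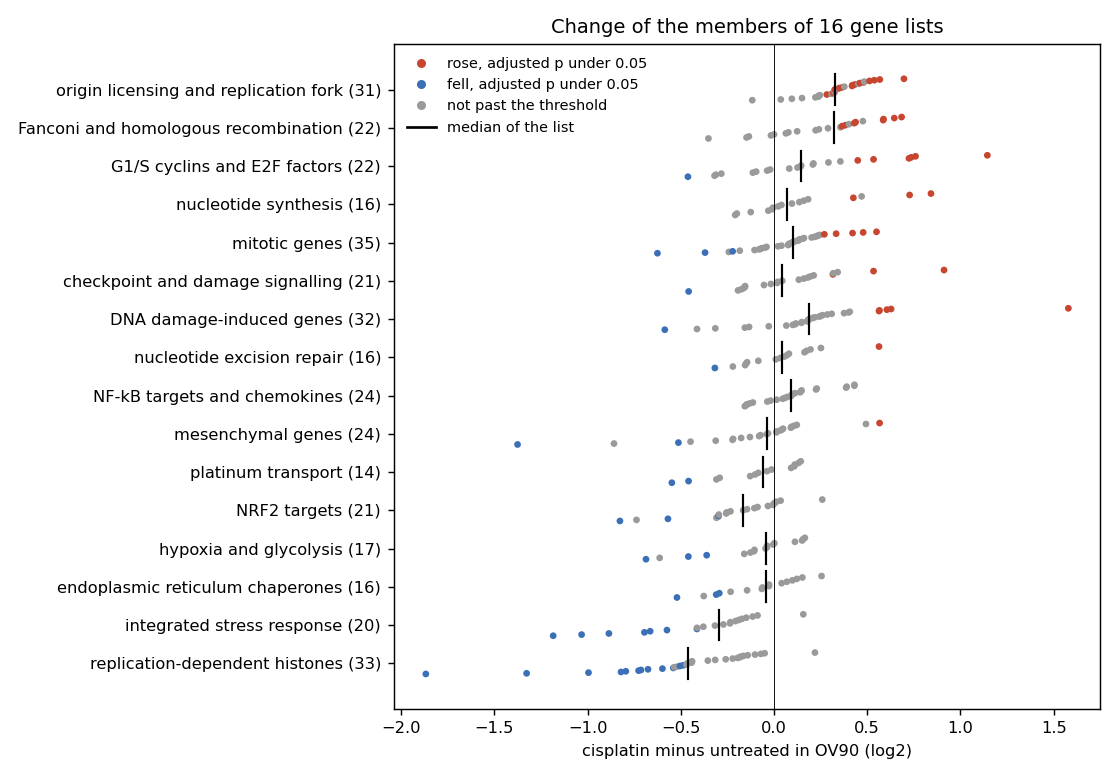
Change of each member of 16 gene lists in OV90 on the log2 scale, with the number measured in brackets; red points rose and blue points fell at an adjusted p below 0.05, grey points did not pass, and black bars mark list medians. Replication (median 0.33) and Fanconi genes (0.32) lie to the right, histone genes (-0.46) and integrated stress response genes (-0.29) to the left.

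Of 33 replication-dependent histones, 12 fell, 0 rose and 21 did not pass. The change was below 0 for 32, and the median was -0.46. H2BC14, a histone H2B gene, read 11.44, 11.30 and 11.16 untreated and 9.46, 9.36 and 9.48 treated. It fell 3.65-fold, by 1.87 ± 0.16 on the log2 scale (SE, adjusted p = 2.05e-14). The linker histone H1-3 read 9.34, 9.40 and 9.22 against 8.05, 7.97 and 7.95 and fell 2.51-fold (adjusted p = 2.27e-05). Both arms of either gene lay more than 1 unit apart. H1-5 fell 1.99-fold (adjusted p = 0.0188) and H3C12 1.77-fold (0.00283); the first lost its call without untreated 2 (0.118) or cisplatin 1 (0.13), the second without cisplatin 1 (0.0887). Without untreated 2 or cisplatin 1 the count of falls was 6 and 5. When genes raised in A2780 were left out, 11 of 32 fell. Near-identical copies share probe sequence, so the values of single histone genes are uncertain.

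The histone promoters carry other motifs. CCAAT or its reverse complement ATTGG was present in the 250 bases before the start of 28 of 30 matched histone genes (93.3%), against 34.4% of all promoters, and TATAAA on the gene's strand in 19 (63.3%), against 6.08%. The 120 bases before the start are shown for the members of the replication-dependent list with the largest falls, with these matches in capitals.
H2BC14: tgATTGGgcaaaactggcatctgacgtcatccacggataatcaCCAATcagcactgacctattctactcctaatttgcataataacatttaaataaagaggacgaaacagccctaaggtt
H1-3: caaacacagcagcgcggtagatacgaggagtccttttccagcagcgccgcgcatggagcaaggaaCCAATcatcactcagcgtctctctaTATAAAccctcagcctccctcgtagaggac

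They lie at chr6:27814902-27815021 on the plus strand and chr6:26234988-26235107 on the minus strand.

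Mitotic genes did not follow a single direction: of 35, 5 rose and 3 fell, with a median of 0.10. PLK1, the kinase that drives entry into mitosis, read 10.40, 10.62 and 10.65 untreated and 9.85, 9.98 and 9.95 treated. Its arms did not overlap, and it fell by 0.63 ± 0.10 on the log2 scale (SE, adjusted p = 2.63e-06). KIF20A (-0.37, adjusted p = 0.0144) lost its call in 4 of the 6 fits without a culture, at 0.0594 to 0.103, and BUB1 (-0.22, 0.0471) in all 6, at 0.0534 to 0.212. NUSAP1, a spindle protein, rose by 0.55 (adjusted p = 0.000136). CDK1 changed by 0.48 (adjusted p = 0.0189), lost without untreated 1, untreated 3, cisplatin 2 or cisplatin 3 (0.106, 0.0839, 0.0743 and 0.0915). MAD2L1, of the spindle checkpoint, changed by 0.42 (adjusted p = 0.0228) and kept its call without untreated 2 only. CCNB1, the mitotic cyclin, read 11.19, 11.04 and 11.18 against 11.08, 11.02 and 11.12, with overlapping arms. Over the 6 fits that leave out a culture, between 2 and 4 members rose and between 1 and 2 fell.

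The list of DNA damage-induced genes, to which CDKN1A belongs, had 32 measured members. Of these, 5 rose and 1 fell, while over all genes 1.12% rose and 1.80% fell. The change was above 0 for 26, and the median was 0.19. Besides CDKN1A, POLH and DDB2 the rises included RPS27L, at 0.63 (adjusted p = 0.00617, lost without untreated 1 at 0.0685). MDM2, a ubiquitin ligase gene, read 10.36, 10.50 and 10.46 untreated and 10.77, 10.54 and 10.60 treated and did not pass (0.19, adjusted p = 0.652). GDF15, a stress cytokine, read 9.10, 9.06 and 9.20 against 9.41, 9.40 and 9.33, and did not pass either (0.26, adjusted p = 0.836). FAS, a death receptor, was at 0.40 (adjusted p = 0.137), SAT1 of polyamine breakdown at 0.39 (0.148) and the BH3-only gene BBC3 at 0.12 (0.933).

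GADD45A, a growth arrest gene induced by stress, went the other way. It read 9.57, 9.42 and 9.58 untreated and 9.08, 8.90 and 8.82 treated, a fall of 0.59 on the log2 scale (adjusted p = 0.00613, lost without cisplatin 3 at 0.0675). The stress transcription factor gene ATF3 read 7.26, 7.36 and 7.59 against 6.95, 6.69 and 6.84 and fell by 0.57 (adjusted p = 0.000638). Untreated A2780 held both below OV90, at 8.47 and 6.70. Of the other immediate early genes FOS changed by 0.47 (adjusted p = 0.00613, lost without untreated 2 at 0.0545 or cisplatin 1 at 0.0782), and the list of 19 had a median of 0.09.

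The integrated stress response slows translation and switches on ATF4 targets when amino acids or protein folding fail. Of 20 such genes, 7 fell and 0 rose, 19 had a change below 0, and the median was -0.29. DDIT4, an inhibitor of mTORC1, read 8.76, 8.75 and 8.82 untreated and 7.63, 7.65 and 7.50 treated, a 2.27-fold fall (adjusted p = 9.24e-08). STC2, a secreted glycoprotein gene, fell 2.05-fold (adjusted p = 0.000739), CTH, which makes cysteine, 1.85-fold (adjusted p = 1.48e-07) and CHAC1, which degrades glutathione, by 0.70 (adjusted p = 0.00233). Untreated A2780 held DDIT4 at 10.56, STC2 at 9.09 and CTH at 9.04, above the 8.78, 7.63 and 8.02 of untreated OV90. When genes raised in A2780 were left out, 9 members remained and 2 of them fell. Among 16 chaperones of the endoplasmic reticulum HYOU1 fell by 0.52 (adjusted p = 0.000783). HSPA5 was at -0.29 (0.0145) and XBP1 at -0.31 (0.036); without untreated 2, untreated 3 or cisplatin 3 neither passed (HSPA5 0.0564, 0.152 and 0.0954; XBP1 0.128, 0.148 and 0.146), and XBP1 also did not without untreated 1 (0.0555) or cisplatin 2 (0.228). Untreated A2780 was higher than OV90 for all 3, at 10.42, 12.51 and 10.50.

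Genes that handle platinum or oxidants were lower where they changed. LRRC8D, a subunit of the anion channel through which cisplatin enters cells, read 9.65, 9.62 and 9.81 untreated and 9.20, 9.13 and 9.11 treated. The arms did not overlap, and it fell by 0.55 on the log2 scale (SE 0.07, adjusted p = 5.70e-08). SLC31A1, the copper importer CTR1, was at -0.46 (adjusted p = 0.0134), lost without untreated 3, cisplatin 2 or cisplatin 3 (0.0931, 0.0506 and 0.0941). Untreated A2780 held both higher, at 10.56 and 10.86. These were 2 of 14 transport genes, whose median was -0.06, and with genes raised in A2780 left out 0 of 10 changed. ATP7B, a copper exporter, read 6.54, 6.86 and 7.07 against 7.04, 6.84 and 6.92, with overlap. Of 21 NRF2 targets 3 fell and 0 rose, with a median of -0.17. ME1, malic enzyme, fell 1.77-fold (adjusted p = 1.08e-09), while AKR1C1 (-0.57) and TALDO1 (-0.30) lost their call in 3 of the 6 fits each: AKR1C1 without untreated 3, cisplatin 2 and cisplatin 3 (0.264, 0.125 and 0.124) and TALDO1 without untreated 1, untreated 3 and cisplatin 1 (0.0983, 0.0827 and 0.224).

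Of 17 hypoxia and glycolysis genes, the glucose transporter SLC2A1 (-0.69, adjusted p = 0.0203), the angiogenic factor VEGFA (-0.46, 0.0132) and PDK1 (-0.36, 0.0312) fell. Without untreated 3 or cisplatin 3 the count was 0 in both fits, and without untreated 1 it was 1. When genes raised in A2780 were left out, 13 members remained and 2 of them fell. IDI1, of sterol synthesis, rose by 0.48 (adjusted p = 0.000949) and was the only one of 16 such genes to pass.

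Among genes of cell identity, the class II antigen gene HLA-DPA1 was 1 of the 3 genes that rose by at least 1 unit. It read 8.01, 8.23 and 8.36 untreated and 9.43, 9.35 and 9.18 treated, a 2.18-fold rise (adjusted p = 1.53e-05). MR1, which presents bacterial metabolites to T cells, rose by 0.62 (adjusted p = 0.00374). It was the 1 of 9 measured genes of the antigen presentation list to pass, a list that does not hold HLA-DPA1. Of 16 CEACAM, mucin and secreted epithelial genes 2 rose and 1 fell. MUC13, a membrane mucin, rose by 0.80 (adjusted p = 0.00414, lost without untreated 1 at 0.124), and CEACAM1, a cell adhesion molecule, by 0.69 (adjusted p = 0.00212). The fall was S100P, a calcium-binding protein gene, at -0.52 (adjusted p = 0.0433), lost without untreated 1 (0.14), untreated 3 (0.3), cisplatin 2 (0.0525) or cisplatin 3 (0.604). The collagen gene COL1A1 read 9.60, 9.53 and 9.65 against 10.16, 10.10 and 10.23 and rose by 0.57 (adjusted p = 0.000183). POSTN, the matrix protein periostin, fell by 1.38 on the log2 scale (adjusted p = 1.12e-08); it read 11.39 in untreated A2780, 8.98 in untreated OV90 and 3.24 in the median of the 16 lines. COL1A2 was at -0.51 and read 12.89 in A2780 against 10.79 in OV90; its call was lost without untreated 2, untreated 3, cisplatin 2 or cisplatin 3 (0.052, 0.0653, 0.205 and 0.0645). EPCAM, CDH1 and VIM changed by 0.13, 0.03 and 0.05 with adjusted p of 0.978, 0.984 and 0.997.

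Of the 15 largest falls, 12 were genes that untreated A2780 held at least 1 unit above untreated OV90. LIN28A, an RNA-binding protein of stem and germ cells that blocks let-7 processing, read 8.23, 8.19 and 8.37 untreated and 6.42, 6.03 and 6.16 treated, a 4.17-fold fall (adjusted p = 5.10e-15). Its untreated level was 11.59 in A2780 and 5.07 in the median of the 16 lines. PTPRD, a receptor phosphatase, read 8.84, 8.85 and 9.11 against 7.41, 7.26 and 7.17, with 10.87 in A2780 and 4.83 in the 16 lines. HGF, the ligand of MET, read 8.44, 8.70 and 8.93 against 7.43, 7.01 and 7.10, with 11.84 in A2780 and 3.41 in the 16 lines. PCDH9, SGCZ, MAP2K6, MDGA2, MUC15, OSTN, NLGN1, CYP1B1 and SCN9A, at -1.85 to -1.53, shared that order. The other 3 were H2BC14, MAP2, which encodes a microtubule protein of neurons (7.40, 7.85 and 7.93 against 6.21, 5.94 and 5.77; 8.02 in A2780), and H1-6, a testis linker histone (5.50, 6.07 and 5.89 against 4.07, 4.07 and 4.49; 5.49 in A2780).

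Falls made up a larger share of genes over 300 kb than of shorter genes. Of genes up to 10 kb 1.26% fell, of those over 10 to 30 kb 1.03%, over 30 to 100 kb 1.53%, over 100 to 300 kb 2.89% and over 300 kb 9.47% (69 of 729), where 2 rose. The median change of the longest class was -0.11 in OV90. Among genes that A2780 did not hold above OV90, 24 of 343 over 300 kb fell, against 34 of 1832 up to 10 kb, 14 of 2068 over 10 to 30 kb, 18 of 2299 over 30 to 100 kb and 14 of 1137 over 100 to 300 kb. In this set the class up to 10 kb stood at 1.86%, the highest share below 300 kb. Replication-dependent histones, such as H1-3 at 0.8 kb, made up 10 of the 104 falls in the set. Their part in the share of the shortest class was not tested. Above 10 kb the share increased with length, from 0.677% over 10 to 30 kb to 0.783% over 30 to 100 kb and 1.23% over 100 to 300 kb. These shares are descriptions, since genes are not replicates. FHIT, at the fragile site FRA3B, spans 1504 kb and read 5.83, 6.37 and 6.31 untreated and 4.89, 4.77 and 5.35 treated. Its arms did not overlap, and it fell 2.24-fold (adjusted p = 7.58e-07); untreated A2780 was at 5.70. STX8, over 325 kb, was at -0.52 (adjusted p = 0.0305) and kept its call without cisplatin 1 only.

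**Figure D4:**
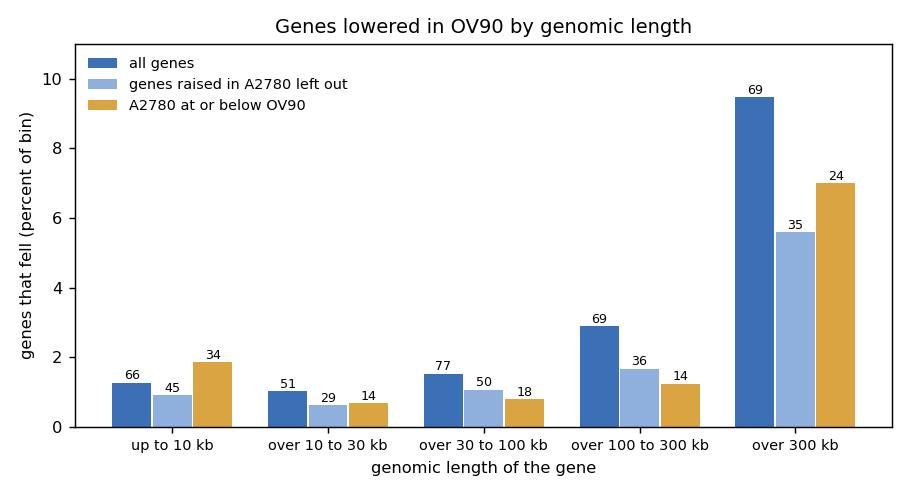
Percent of genes that fell in OV90 by genomic length, for all genes (dark blue), with genes raised in A2780 left out (light blue) and for genes that A2780 did not hold above OV90 (gold), all with the calls over all genes; numbers above bars are the genes that fell. The class over 300 kb stands highest in each set, with 69, 35 and 24 genes that fell.

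A change called in OV90 does not show that OV90 differs from other lines, so the OV90 change was tested against the mean change of the other 17 replicated lines. Of 18417 genes, 383 differed by limma at an adjusted p below 0.05 (2.08%), with OV90 higher for 140 (0.760%) and lower for 243 (1.32%). The split depended on scaling: it was 186 and 197 with arrays centred on their median and 265 and 271 after quantile normalization. Of the genes that rose in OV90, 109 also differed upwards, and of those that fell, 187 differed downwards; these sets use the same OV90 cultures and are not independent. With genes raised in A2780 left out, 123 were higher and 95 lower.

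Of 31 fork genes 16 differed upwards from the other lines and 0 downwards, and of 22 Fanconi and homologous recombination genes 5 and 0. The median change of the fork list was 0.33 in OV90 and ran from -0.84 in HeyA8 to 0.59 in FU-OV-1 over the other lines, with OV90 at rank 3 of 18. MCM10 changed by 0.70 in OV90 and by -0.06 on average elsewhere, with a change above 0 in 8 of 17 lines (difference 0.76 ± 0.09 (SE), adjusted p = 2.30e-09). RRM2 differed by 0.78 (adjusted p = 1.09e-08), CCNE2 by 0.88 (1.13e-06), CLSPN by 0.88 (0.000228), E2F8 by 0.76 (1.64e-06) and UBE2T by 0.64 (0.000244). CDKN1A had a mean change of 0.83 over the 17 lines, above 0 in 16 of them, and OV90 was 0.75 higher (adjusted p = 0.000592). HLA-DPA1 differed by 0.95 (adjusted p = 0.000719).

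For DNA damage-induced genes other than CDKN1A the difference, where it passed, was downwards. GADD45A had a mean change of 0.34 over the 17 lines, above 0 in 16 of them, and OV90 was 0.93 below that mean (adjusted p = 4.53e-06). GDF15 had a mean change of 1.09 in the other lines, above 0 in 16 of 17, and OV90 was 0.83 lower (adjusted p = 0.0397); each fit without a culture lost that call, with adjusted p from 0.0931 to 0.161. ATF3 was 0.77 lower (adjusted p = 4.36e-06). The median of the 32 genes ranked 17 of 18 lines at 0.19, the others running from 0.11 in TYK-nu to 0.75 in HeyA8. POLH, DDB2 and MR1 changed in OV90 by 0.57, 0.56 and 0.62 and elsewhere by means of 0.47, 0.67 and 0.68, and their differences did not pass (adjusted p = 0.866, 0.907 and 0.967).

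For the 33 histones the difference from the other lines passed upwards for 1 and downwards for 1. H1-3 fell in OV90 by 1.33 on the log2 scale and was lower in all 17 lines, with a mean of -0.81 (difference -0.51, adjusted p = 0.389). H2BC14 was 0.58 below the mean of -1.29 (adjusted p = 0.0466), a call lost in each of the 6 fits without a culture (adjusted p from 0.0606 to 0.212). The list median ranked 8 of 18. Of the stress genes DDIT4 (-1.20, adjusted p = 1.94e-07), STC2 (-1.13, 0.0003) and CTH (-0.82, 3.22e-06) were below the mean of the other lines. ME1 (-0.72, 3.14e-07) and LRRC8D (-0.41, 0.000107) were also below that mean. The median of the 20 integrated stress response genes, -0.29 in OV90, ranked 14 of 18. It was lower still in FU-OV-1, at -0.79, and in A2780, at -0.53, and highest in TYK-nu, at 0.35. Of the 10 largest downward differences 9 were genes that A2780 held at least 1 unit above OV90, among them LIN28A (-1.95), POSTN (-1.62) and CDH10, a neural cadherin (-1.63).

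**Figure D5:**
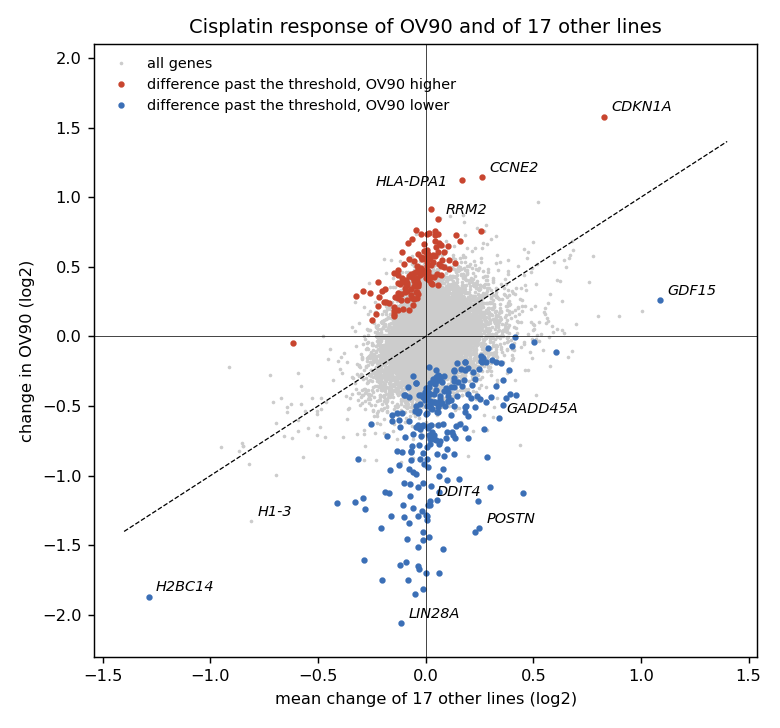
Change of 18417 genes in OV90 (vertical) against the mean change of the 17 other replicated lines (horizontal), both on the log2 scale; red and blue points are the 140 genes higher and 243 lower in OV90 with an adjusted p below 0.05 for the difference, and the dashed line marks equal change. CDKN1A lies high on both axes, GDF15 far right at 0.26 in OV90, and LIN28A at the bottom near 0 on the horizontal axis.

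In 19 of the 43 lists no member passed in OV90 by limma, and list medians ran from -0.15 to 0.12. Of their 249 genes, 20 had an unadjusted p below 0.05, against 2085 of all 18417 genes. These lists were picked for having no call, which by itself lowers that count. The lists include 24 NF-kB targets and chemokines, where CXCL8 read 5.50, 5.74 and 5.41 against 5.67, 5.81 and 5.32 and TNFAIP3 5.74, 5.98 and 5.92 against 6.06, 5.81 and 5.99, both with overlap. The EGF receptor ligands, the pro-apoptotic and anti-apoptotic BCL2 families, the death receptors, the metallothioneins and the epithelial genes are among the others. HBEGF (0.05, adjusted p = 0.989) and TXNIP (0.03, adjusted p = 0.998), whose mean changes in the other lines were 0.50 and 0.64, did not differ from them past the threshold (adjusted p = 0.556 and 0.824). An adjusted p above 0.05 with 3 cultures an arm does not show that a gene was unchanged: in simulated data changes of 0.4 were recovered in 25.6% of cases.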

How the data were processed

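Log2 values of 33297 probe sets on 171 Affymetrix gene arrays were deposited by the authors as a single table. The submitters' processing notes name RMA, which subtracts background, quantile-normalizes and summarizes probes and so compresses differences near background; its version is not given in the sources used here. Of the probe sets, 19460 had 1 gene symbol in the platform annotation, 1754 several and 12083 none listed. The probe set with the highest mean was kept per gene, giving 18417 genes, with symbols and lengths from RefSeq (GRCh38.p14). Repeat arrays were averaged with their culture. R 4.3.3 and limma 3.58.1 (lmFit, eBayes) fitted 1 mean per line and treatment to the 107 cultures of 18 replicated lines in batches 1 to 3 (71 residual degrees of freedom), with Benjamini-Hochberg adjustment over all genes at 0.05. Precision is set by the number of arrays.

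Named genes were the 15 largest rises and falls without overlap, the largest changes of each of 43 lists (4 where members passed, 2 otherwise), a fixed set, and the 10 largest differences from other lines in each direction. Members and lists were chosen with earlier results of these data known. Same-numbered cultures did not deviate together (correlations -0.34, 0.01 and -0.26). Correlations between cultures of different number ran from -0.15 to 0.36. With 3 cultures an arm these values cannot settle whether the numbers mark pairs, and the main fit used no pairs. The fit was tested on 20 simulated draws of 18417 genes with 200 changed. It found 25.6% of changes of 0.4 and 84.9% of changes of 0.8 and made a median of 4 false calls. The draws gave each gene independent noise of equal spread on every array. These rates therefore do not cover shifts shared by the genes of an array or arrays of unequal quality. Alternatives changed samples, scaling, filters, weights and the replicate block. A gene of the fixed set is not reported here.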

Additional observations from a re-analysis of the deposited data

Results flagged for a closer look

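Results are listed here because the OV90 response differed from the mean response of the other 17 replicated lines by limma's test of that difference at an adjusted p below 0.05. Over all genes OV90 was higher for 140 and lower for 243. Arms of 3 cultures are too small for a test of single outlying cultures, and none was made.

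Of the named genes 25 had a higher response in OV90; the difference on the log2 scale is given in brackets. They were HLA-DPA1 (0.95), CLSPN (0.88), CCNE2 (0.88), DSCC1 (0.81), RRM2 (0.78), MCM10 (0.76), E2F8 (0.76), MND1 (0.75), CDKN1A (0.75), SYTL5 (0.73), TTLL6 (0.73), E2F2 (0.72), RRM1 (0.68), UBE2T (0.64), EXO1 (0.60), FEN1 (0.59), FANCI (0.55), CDC25A (0.53), MYBL1 (0.50), GINS3 (0.50), CDC6 (0.49), NUSAP1 (0.47), MAD2L1 (0.46), TYMS (0.38), TOPBP1 (0.36).

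Lower responses were found for 33 named genes. Of these, 18 were genes that untreated A2780 held at least 1 unit above untreated OV90: LIN28A (-1.95), PCDH9 (-1.80), SGCZ (-1.80), MUC15 (-1.76), MDGA2 (-1.71), OSTN (-1.64), CDH10 (-1.63), POSTN (-1.62), PTPRD (-1.61), SCN9A (-1.61), MAP2K6 (-1.54), CYP1B1 (-1.53), NLGN1 (-1.52), HGF (-1.48), DDIT4 (-1.20), STC2 (-1.13), CTH (-0.82), COL1A2 (-0.54). The remaining 15 were MAP2 (-1.67), H1-6 (-1.32), GADD45A (-0.93), FHIT (-0.87), GDF15 (-0.83), SLC2A1 (-0.79), ATF3 (-0.77), ME1 (-0.72), H2BC14 (-0.58), S100P (-0.55), VEGFA (-0.45), WIPI1 (-0.43), LRRC8D (-0.41), PDK1 (-0.38), PLK1 (-0.37). The part of the A2780 genes in these differences was not tested. Of the 58 differences, 43 held in each of the 6 fits without a culture and 15 were lost in at least 1, among them those of MYBL1, TTLL6, H2BC14, TYMS, PLK1, MAD2L1, TOPBP1, SLC2A1, VEGFA, PDK1, COL1A2, S100P, GDF15, SYTL5 and MND1.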

How the results depend on the processing

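Counts of genes past the threshold are given as total, higher and lower. The OV90 change had 538, 206 and 332; leaving out 1 culture gave 297 to 393, 99 to 160 and 183 to 293. With a minimum change of 1.2-fold it had 96, 18 and 78, with array weights 3588, 1501 and 2087 (the weights did not converge fully), and with the OV90 cultures alone and the replicate block 111, 17 and 94. The replicate block in the full fit gave 437, 161 and 276. Quantile normalization gave 323 higher, and leaving out the genes raised in A2780, an alternative chosen after seeing the data, 351 in all and 171 lower. The difference from the other 17 lines had 383, 140 and 243; leaving out 1 culture gave 237 to 295, 72 to 106 and 139 to 223. A minimum change of 1.2-fold gave 78, 11 and 67, array weights 2835, 1164 and 1671, the batch 2 lines alone 87 higher, quantile normalization 265 higher, and leaving out the A2780 genes 218 in all and 95 lower. The causes were not tested beyond what each alternative removes. Of 91 named genes past the threshold, 57 kept their call without each culture in turn, and none of the 91 changed sign under an alternative run.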

Other observations

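Genes outside the lists were looked at after their values had been seen, so they are given as values. ASF1B, a histone chaperone, read 9.02, 9.09 and 9.18 untreated and 9.91, 9.81 and 9.76 treated (0.73, limma adjusted p = 9.42e-08), while its paralogue ASF1A changed by -0.36 and did not pass. MYBL2 and FOXM1, transcription factors of the late cell cycle, changed by 0.55 and 0.44 (adjusted p = 6.88e-05 and 0.00155), and their untreated levels ranked 14 and 10 of the 18 lines. SLBP, the protein that binds the stem-loop of histone mRNA, changed by 0.43 (adjusted p = 0.0237), a call lost without any 1 of the 6 cultures.

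Among the falls in genes that A2780 did not hold above OV90, RSPO3, an enhancer of Wnt signalling, read 6.33, 6.64 and 6.75 untreated and 5.28, 5.66 and 5.02 treated (-1.25, adjusted p = 6.43e-06), with 5.26 in untreated A2780. NR1D2, a repressor of the circadian clock, read 7.66, 7.57 and 7.74 against 6.72, 6.61 and 6.67 (-0.99, adjusted p = 0.00113). Of 104 such falls, 24 were genes over 300 kb and 10 were replication-dependent histones. The long ones include NAALADL2 (-1.19), PRKG1 (-1.12), CTNNA2 (-1.07), ANKS1B (-0.93) and IL1RAPL1 (-0.74), each past the threshold in all 6 fits without a culture. HLA-DMA, which loads peptides on class II molecules, changed by 0.52 in OV90 and by a mean of 0.52 in the other lines, where it was higher in 17 of 17.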
